A study of Mus musculus with 3 samples.

Results

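Heat shock proteins are molecular chaperones, and 10 of their genes were followed across 3 arrays of Hepa1c1c7 cells, a mouse hepatoma cell line. The 10 genes were listed by name, with no measured value in the rule, at a time when earlier results of these data were known: Hspa1a, Hspa1b, Hspa8, Hsph1, Dnajb1, Hsp90aa1, Hsp90ab1, Hspd1, Hspe1 and Hspb1. They were represented by 19 of the 56605 probes and by 10 of the 22908 genes that had a symbol. The cells were transfected with an empty vector (pCMV6-Kan/Neo), with a vector carrying the open reading frame of Mst1r, a receptor tyrosine kinase, or with one carrying that of Slpi, a secreted protease inhibitor. RNA was collected the day after transfection, and 1 array was hybridised per vector which made 3 groups of 1 sample. All 3 samples shared the transfection procedure, no untransfected culture was analysed here, and the share of cells that took up a vector was not given in the sources used here. The study asked which genes respond to a high level of Mst1r or Slpi in liver tumour cells.

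Under normal conditions the constitutive chaperones (Hspa8, Hsp90ab1, Hspd1, Hspe1) fold newly made or imported proteins. When proteins misfold, heat shock factor Hsf1 forms trimers and binds heat shock elements, which are inverted repeats of the unit nGAAn, in the promoters of inducible genes, among which Hspa1a, Hspa1b, Hspb1, Dnajb1 and Hsph1 are the standard markers. A separate set of chaperones, led by Hspa5 (BiP), works in the endoplasmic reticulum and responds to misfolding in that compartment.

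Promoters are shown for the genes whose results are described in most detail, with the heat shock element letters in capitals. The sequences are RefSeq's, GRCm38.p6, read 5′ to 3′ along the gene, and they are the 250 bases before the annotated start, not the positions of array probes. Those of Hspa1a (chr17:34972157-34972406, minus strand) and Hspb1 (chr5:135887669-135887918, plus strand) are shown with that of Hspa1b (chr17:34959239-34959488, minus strand). The fourth sequence lies between the starts of Hspe1 and Hspd1, which point away from each other, and is given on the plus strand (chr1:55087933-55088147, 215 bases).
Hspa1a: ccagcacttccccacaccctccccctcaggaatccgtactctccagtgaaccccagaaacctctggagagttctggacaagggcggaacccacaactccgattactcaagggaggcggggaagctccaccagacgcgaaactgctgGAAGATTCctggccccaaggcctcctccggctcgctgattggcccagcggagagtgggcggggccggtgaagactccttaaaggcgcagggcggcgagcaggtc
Hspa1b: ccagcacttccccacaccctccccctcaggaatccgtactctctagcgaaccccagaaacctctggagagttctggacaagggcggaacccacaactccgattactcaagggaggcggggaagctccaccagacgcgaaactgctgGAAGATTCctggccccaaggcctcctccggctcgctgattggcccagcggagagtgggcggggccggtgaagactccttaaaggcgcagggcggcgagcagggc
Hspb1: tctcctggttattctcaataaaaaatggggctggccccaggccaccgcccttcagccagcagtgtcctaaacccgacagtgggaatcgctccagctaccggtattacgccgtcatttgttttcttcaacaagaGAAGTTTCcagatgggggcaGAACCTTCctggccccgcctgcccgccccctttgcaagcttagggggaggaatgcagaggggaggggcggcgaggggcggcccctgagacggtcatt
Hspd1 to Hspe1: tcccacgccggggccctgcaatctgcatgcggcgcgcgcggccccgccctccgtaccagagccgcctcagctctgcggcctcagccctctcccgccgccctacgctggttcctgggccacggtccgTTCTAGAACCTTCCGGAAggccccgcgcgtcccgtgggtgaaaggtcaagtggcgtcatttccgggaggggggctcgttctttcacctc

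The Hspa1a and Hspa1b windows had the same base at 247 of 250 positions (98.8%). The search used pairs of the unit (GAANNTTC or TTCNNGAA) and triples (GAANNTTCNNGAA or TTCNNGAANNTTC) on both strands. A triple contains overlapping pairs. Hspa1a and Hspa1b each held 1 pair, GAAGATTC, 104 bases before the start. Hspb1 held 2 pairs, GAAGTTTC and GAACCTTC, and Hsph1 held 1, TTCTCGAA. The region shared by Hspd1 and Hspe1 held 3 overlapping pairs that made up 2 triples in 1 run of 18 bases. Of the 7 genes with a window, 6 held a pair and 2 a triple, both of the latter through that shared region, while the Dnajb1 windows held none. Hspa8, Hsp90aa1 and Hsp90ab1 had no window. In all 32841 promoter windows of the same length, a pair was present in 12.8% and a triple in 0.466%. Counted by gene, as for the 7, a pair was present for 3932 of 27018 genes and a triple for 139. These matches are letters in a window and show no binding.

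The deposited value of a spot is its processed signal, an intensity without units. Signals were compared between arrays as log2 after subtraction of each array's 75th percentile, so that 0 means the same position relative to that percentile. The 75th percentiles were 268 (empty vector), 229 (Mst1r vector) and 254 (Slpi vector), and between 46.7% and 48.5% of probes were well above background, a flag that the scanner software sets. A gene was taken as measured when its brightest probe carried that flag on all 3 arrays, which held for 12457 of 22908 genes and for 7 of the 10 heat shock genes. The exceptions were Hspa1a, Hspa1b and Hspb1. With 1 array per group no test was possible and each difference rests on a single pair of arrays without a replicate. The value after ± is the SD expected from repeated spots of 1 array at that signal, which covers spot error and no variation between cultures. It was 0.057 per spot above a log2 signal of 14 and 0.65 below 3. All arrays lay on 1 slide, where position and group cannot be told apart. The probe for Mst1r lacked the flag on every array (4.15, 4.08 and 3.70 for empty, Mst1r and Slpi vector), and where it lies relative to the open reading frame in the vector was not known. The brightest Slpi probe gave 6459, 3843 and 6680 in the same order. After scaling, Slpi differed by 0.13 in log2 between the Slpi and empty vector arrays. The study reports raised Mst1r by real-time PCR in Hepa1c1c7 cells given its vector, which the array probe does not show. The vector names below therefore mean the arrays labelled so. Of 13 hepatocyte markers 7 were measured, including Afp and Alb, while Hnf4a, Apoh and Ahsg lacked the flag on all 3. Of 13 markers of other liver cell types 9 were measured and 4 were not. Among those 4 were the leukocyte and Kupffer cell markers Ptprc, Adgre1 and Clec4f, which lacked the flag on all 3. The other leukocyte and macrophage markers listed, Cd68 and Cd3e, therefore cannot both have gone unmeasured. Of the 9 measured, Des and Krt19 were lower by 1.5-fold with the Mst1r vector, as were 2.41% of all measured genes. Des was also lower with the Slpi vector, as were 1.02% of all measured genes. Des, a stellate and muscle cell filament, read 227, 37.9 and 58.2 on the empty, Mst1r and Slpi vector arrays. The part of these markers in the results below was not tested.

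**Figure D1:**
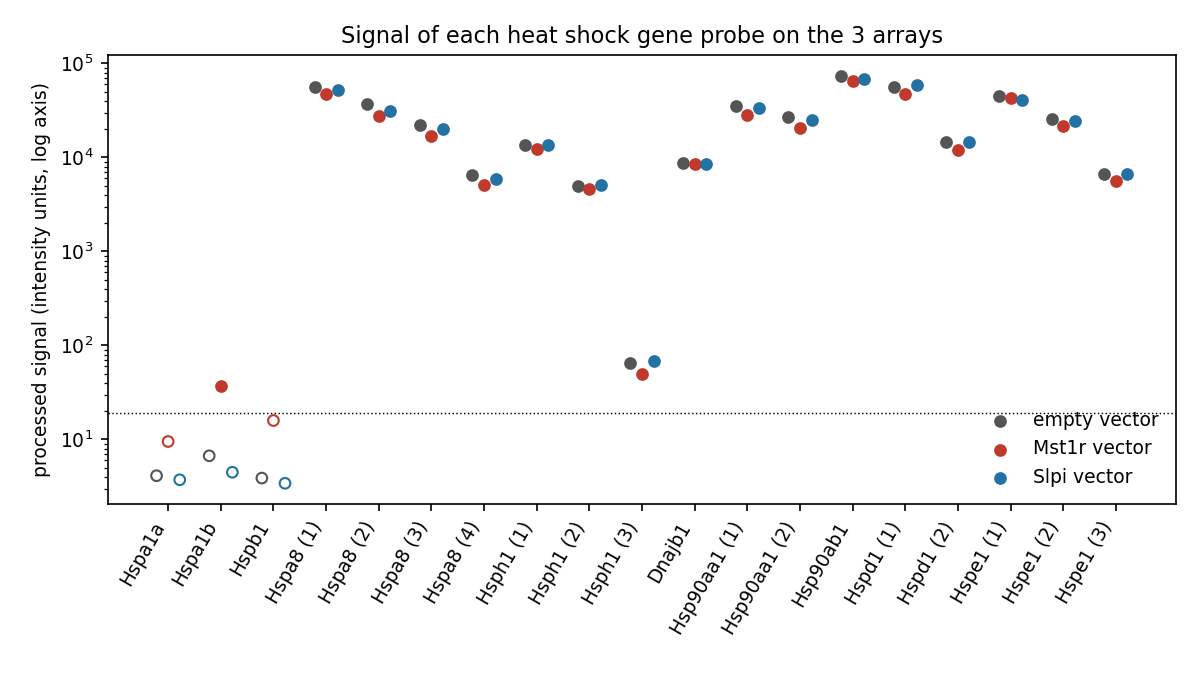
Processed signal (log axis) of each of the 19 probes on the empty, Mst1r and Slpi vector arrays, with open circles for spots not well above background and a dotted line at 18.9, the highest of the 3 arrays' lowest well-above-background signals. Numbers in brackets separate probes of 1 gene; levels are comparable across arrays for a probe and not between probes. The 16 probes of the other 7 genes were far above the line or, for the dimmest Hsph1 probe, at 49.3 to 69.1, while Hspa1a, Hspa1b and Hspb1 were highest on the Mst1r vector array.

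The 3 dim genes are stress-inducible, and each gave its highest signal on the Mst1r vector array, near or below the edge of detection. Hspa1b, an inducible cytosolic HSP70, read 6.70 with the empty vector, 37.1 with the Mst1r vector and 4.48 with the Slpi vector, and carried the flag on the Mst1r vector array alone. Set against the lowest signal that counts as well above background, and after percentile scaling, it was 2.30-fold higher with the Mst1r than with the empty vector. Against the Slpi vector the same reckoning gave 2.49-fold. These folds are not lower limits: with another background correction (normexp) the log2 differences were 0.64 and 0.62. Its near-identical neighbour Hspa1a, the other inducible HSP70, read 4.12, 9.51 and 3.73 in that order and carried the flag on none of the arrays. Hspb1, the small heat shock protein HSP27 (mouse Hsp25) that holds unfolded proteins for later refolding, read 3.88, 15.9 and 3.42 and likewise never carried the flag. For Hspa1a and Hspb1 no fold is given. Whether the probes tell the transcripts of Hspa1a and Hspa1b apart was not tested, and each of these 3 genes had a single probe.

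Being well above background on the Mst1r vector array alone was not particular to Hspa1b: it held for 405 of 22908 genes, 1.77%. Of these 405 genes, 70.6% had their probe in the upper rows of the array, left of the dotted line in the plot by row, which hold 34.9% of genes. The Hspa1b spot lies in row 100, that of Hspb1 in row 18 and that of Hspa1a in row 301. Among the 1905 probes that lie in the block of 32 rows with the Hspa1b spot and read under 15 on the other 2 arrays, 55 (2.89%) reached the Hspa1b signal of 37.1 on the Mst1r vector array, as did 4 of 189 control spots (2.12%), which hold no gene of the cells. The same tally made for the empty and Slpi vector arrays gave 2.99% and 2.69%. For Hspb1, 271 of 1612 such probes in the first 32 rows (16.8%) and 25 of 178 control spots there reached 15.9. For Hspa1a, 1288 of 18626 such probes in the lower rows (6.92%) and 53 of 1711 control spots there reached 9.51. Here the empty and Slpi vector arrays gave 10.4% and 6.16%. The part of row position in these 3 signals was not tested.

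**Figure D2:**
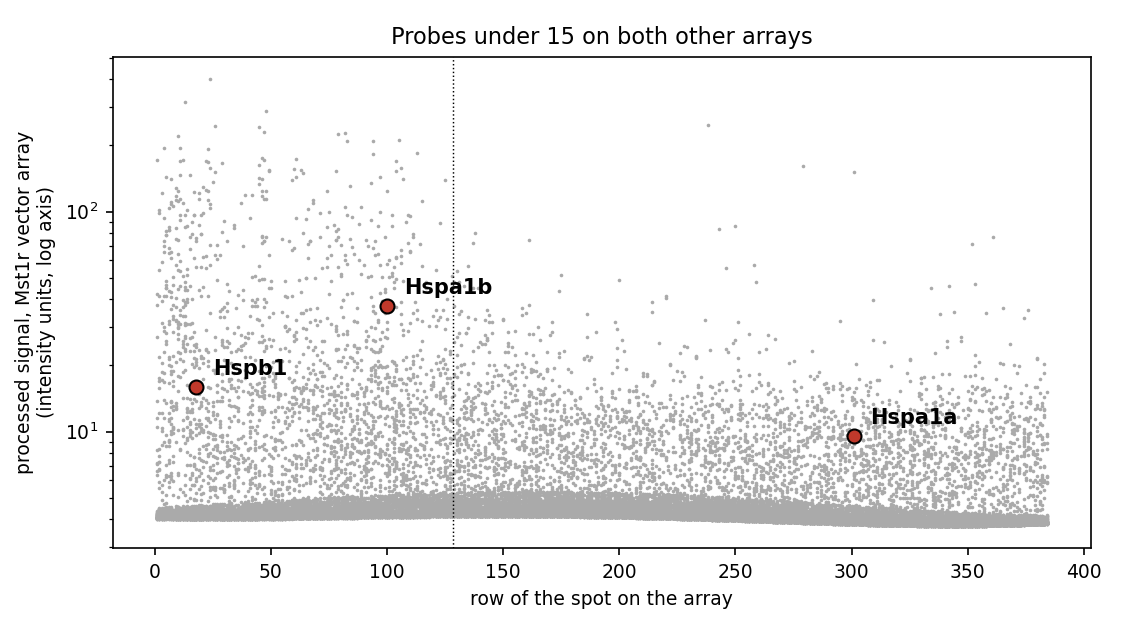
Processed signal on the Mst1r vector array (log axis) against spot row, for probes that read under 15 on both other arrays (grey), with Hspa1a, Hspa1b and Hspb1 in red and a dotted line between upper and lower rows. High readings among otherwise dark probes were denser in the upper rows, where 4.78% reached 37.1, than in the lower rows, where 0.172% did.

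The 7 measured genes differed little between the vectors, by -0.19 to 0.24 in log2 on their brightest probes over the 3 comparisons. Past a limit of 1.5-fold, 0 of 7 were higher and 0 of 7 lower with the Mst1r than with the empty vector, where 3.76% of all measured genes were higher and 2.41% lower by that fold. With the Slpi vector the counts were again 0 and 0, against 1.05% and 1.02% of all genes. Both comparisons use the same empty vector array. Between the Mst1r and Slpi vectors the counts were 0 and 0, against 4.03% and 2.59%. For 7 genes these counts are too close to the shares to be read as a result about heat shock genes. The median log2 difference of the 7 genes was 0.04 for Mst1r and 0.01 for Slpi, beside -0.05 and 0.0058 over all measured genes. Bright probes vary less than dim ones, so 2063 genes with a mean signal over 5000, a set chosen after the values were seen, give a closer reference: their medians were -0.04 and 0.03, and 21 of them were higher and 9 lower by 1.5-fold with Mst1r. Before scaling, all 16 probes of the 7 genes read lower with the Mst1r vector, by -2.81% to -25.8%, and 12 of 16 read lower with the Slpi vector. The 75th percentile of the whole array was itself lower, by -0.23 (Mst1r) and -0.08 (Slpi) on the log2 scale.

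**Figure D3:**
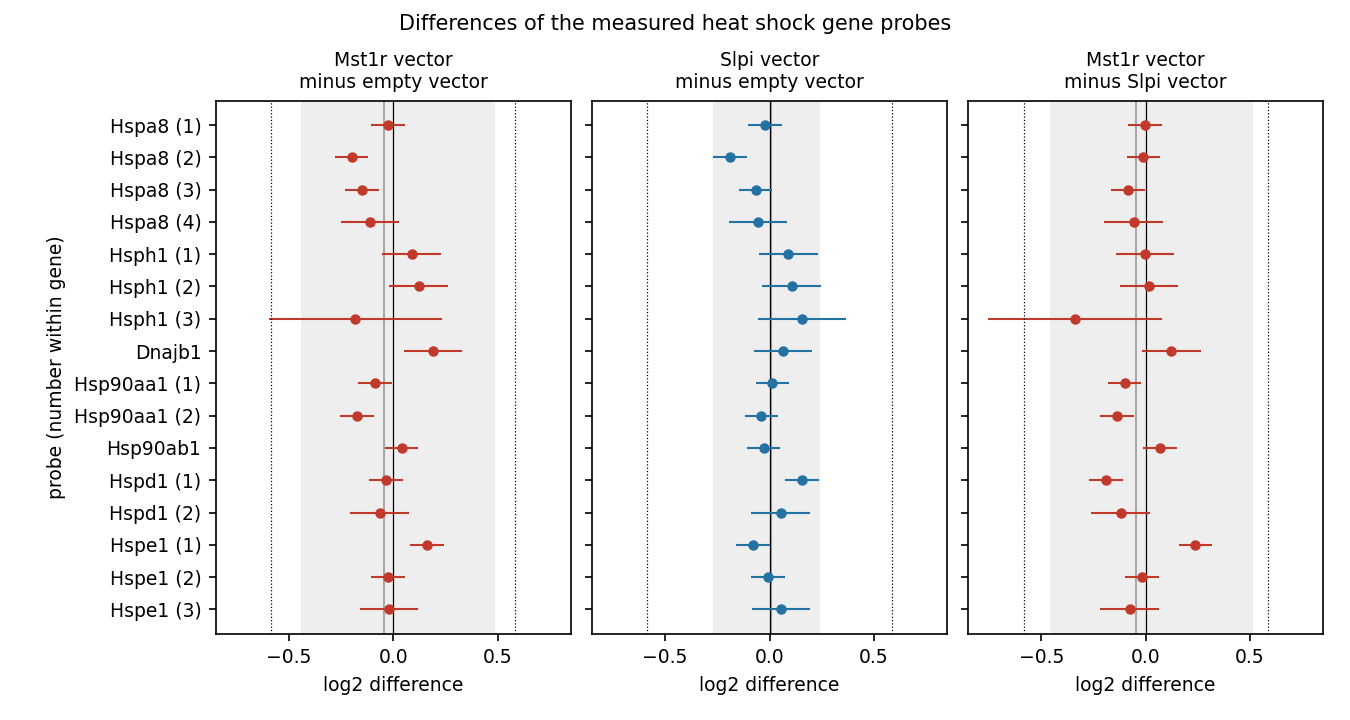
Log2 difference (points) of the 16 measured probes with the spot error (bars, 1 SD), for the 3 pairs of arrays. Grey bands hold the central 90% of all 12457 genes, grey lines mark their median and dotted lines 1.5-fold. All points lay between -0.34 and 0.24, inside the dotted lines.

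Among the cytosolic HSP70 machinery, Hspa8 (HSC70), the constitutive HSP70 that also uncoats clathrin, read 55887 with the empty vector, 46838 with Mst1r and 52113 with Slpi. Its scaled log2 difference was -0.02 ± 0.08 for both vectors. The other 3 Hspa8 probes gave -0.20, -0.15 and -0.11 for Mst1r and -0.19, -0.07 and -0.06 for Slpi, so all 4 probes were below 0 in both comparisons, with an SD between probes of 0.074 and 0.073. Hsph1 (HSP110), the nucleotide exchange factor of HSP70, read 13575, 12291 and 13691, a difference of 0.09 ± 0.14 for each vector. Its second probe gave 0.12 and 0.11, and its remaining, dim probe gave -0.18 ± 0.42 and 0.16 ± 0.21. Dnajb1 (HSP40), the co-chaperone that hands substrates to HSP70, read 8667, 8424 and 8590. At 0.19 ± 0.14 it had the highest value of the 7 genes with the Mst1r vector, less than 2 errors from 0, and it gave 0.07 ± 0.14 with Slpi. The inducible markers that were bright here, Dnajb1 and Hsph1, were thus both within 2 errors of 0.

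The 2 cytosolic HSP90 genes, whose proteins mature kinases and steroid receptors, lay on opposite sides of 0 with the Mst1r vector. Hsp90aa1, the inducible form, read 35358, 28384 and 33804, with differences of -0.09 ± 0.08 for Mst1r and 0.01 ± 0.08 for Slpi. Its second probe gave -0.17 and -0.04. Hsp90ab1, the constitutive form, read 74204, 64999 and 68900, with differences of 0.04 ± 0.08 and -0.03 ± 0.08. Hsp90ab1 had no second probe. Against the empty vector, the probes beyond 2 errors were the second one of Hspa8 with both vectors and the second one of Hsp90aa1 with Mst1r, each lower.

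The mitochondrial chaperonin consists of Hspd1 (HSP60), the ring that encloses a folding protein, and Hspe1 (HSP10), its lid. By their brightest probes they were the only ones of the 7 genes beyond 2 spot errors in any of the 3 comparisons, between the Mst1r and Slpi vectors and in opposite directions. Hspd1 read 56257, 46789 and 59335 on the empty, Mst1r and Slpi vector arrays, and its Mst1r minus Slpi difference was -0.19 ± 0.08. Hspe1 read 45298, 43155 and 40629, and its difference was 0.24 ± 0.08. The genes share the divergent promoter region printed above. The other probes did not repeat this contrast. The second Hspd1 probe gave -0.12 ± 0.14, and the other Hspe1 probes lay on the other side of 0, at -0.02 ± 0.08 and -0.08 ± 0.14. Over the scalings and other alternatives run, this difference ranged from -0.34 to -0.06 for Hspd1 and from 0.05 to 0.37 for Hspe1. Against the empty vector, Hspd1 differed by -0.04 ± 0.08 (Mst1r) and 0.16 ± 0.08 (Slpi) and Hspe1 by 0.16 ± 0.08 and -0.08 ± 0.08. The RefSeq table names 5 Hspd1 and 6 Hspe1 pseudogenes, and whether a probe also reads such a copy was not tested.

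The sign of most of these small differences depended on the scaling. Dnajb1 and Hspe1 stayed above 0 with the Mst1r vector under each scaling between arrays and were below 0 without any scaling, and Hsp90aa1 and Hspd1 stayed below 0 throughout. With the Slpi vector, median scaling put all 7 genes above 0 and spike-in scaling put all 7 below 0, a shift of the whole array of 0.16 and -0.24.

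**Figure D4:**
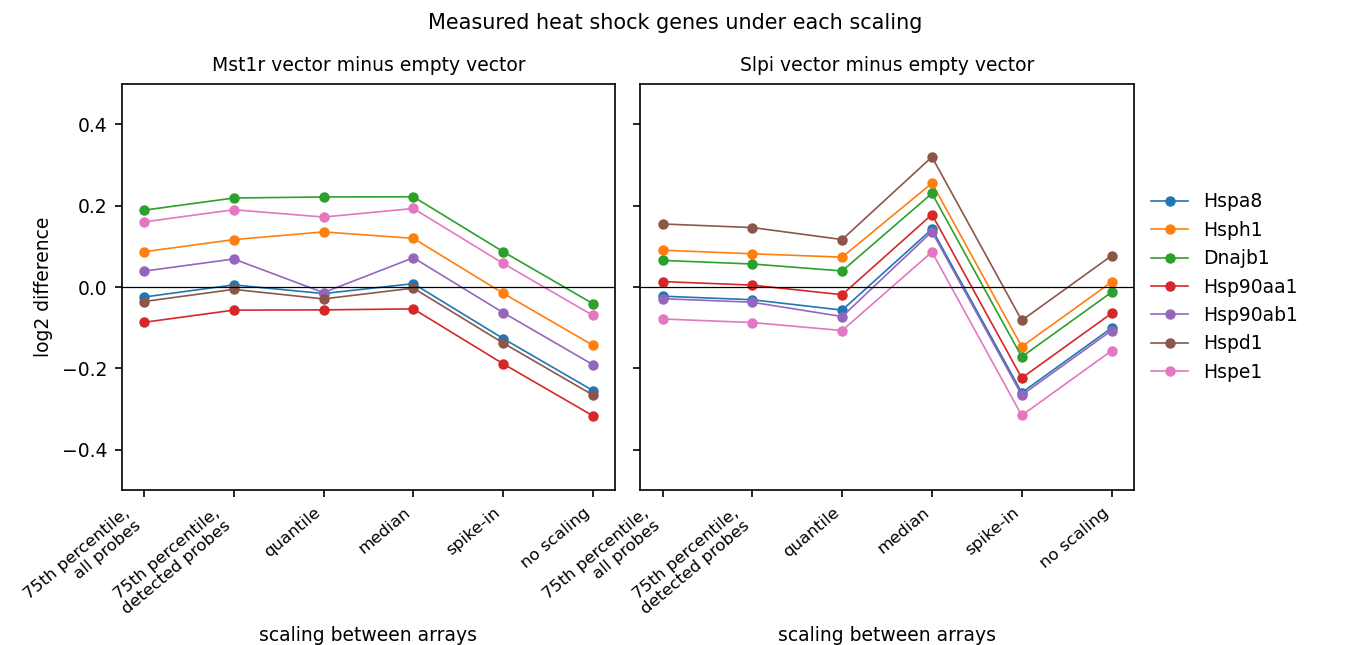
Log2 difference from the empty vector of the 7 measured heat shock genes (1 line a gene) under 5 scalings between arrays and without scaling, with the Mst1r vector (left) and the Slpi vector (right). The median of the 7 genes moved from -0.19 to 0.07 on the left and from -0.22 to 0.18 on the right.

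The other chaperone genes were read in 6 lists. Of 68 further genes, 67 had a probe and 61 were measured, and with the Mst1r vector 1 was higher and 1 lower by 1.5-fold than with the empty vector, where 3.76% and 2.41% of all measured genes were. With the Slpi vector 0 of 61 passed in either direction, beside 1.05% and 1.02% of all genes. These counts are too close to those shares to be read as a result about chaperones. Medians with the Mst1r vector were 0.03 for 6 other HSP70 and HSP110 genes, 0.0029 for 9 other mitochondrial chaperones and proteases, -0.05 for 12 other DnaJ genes, 0.06 for 6 other small heat shock proteins, -0.06 for 20 co-chaperones and 0.0051 for the 8 subunits of TRiC, the cytosolic chaperonin. With the Slpi vector the 6 medians lay between -0.04 and 0.04.

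The gene below the 1.5-fold limit was Stip1 (HOP), the adaptor that passes client proteins from HSP70 to HSP90. It read 4969 with the empty vector, 2526 with Mst1r and 5388 with Slpi, from a single probe. Its difference was -0.75 ± 0.13 for Mst1r and 0.20 ± 0.14 for Slpi, and for Mst1r it lay between -0.98 and -0.71 with percentile, median and spike-in scaling and without scaling. The probes of Hspa8, Hsp90aa1 and Hsp90ab1, whose proteins it connects, lay between -0.20 and 0.04, and Ppid, another HSP90 co-chaperone, was the highest of its list at 0.13 ± 0.08. The gene above the limit was Hspa12a, a distant HSP70 relative, at 2.53 ± 0.42. It read 19.6, 96.5 and 20.3, with its only spot in row 4. The tallies by row above cover probes under 15 on the other 2 arrays and so leave this spot out. The part of row position in its value was not tested.

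The remaining extremes of these lists were small. For Mst1r the lowest HSP70 relative was the testis-enriched Hspa2 (-0.26 ± 0.55, dim), and for Slpi the same gene (-0.24 ± 0.55). In mitochondria, the protease Lonp1 was highest (0.19 ± 0.08) and the exchange factor Grpel1 lowest (-0.10 ± 0.14) with Mst1r, and with Slpi Grpel2 was highest (0.16 ± 0.14) and Dnaja3 lowest (-0.07 ± 0.12). Among DnaJ genes Dnajc7 was highest with both vectors (0.16 ± 0.14 and 0.12 ± 0.14), Dnajb12 lowest with Mst1r (-0.28 ± 0.17, second probe 0.03) and Dnaja1 lowest with Slpi (-0.17 ± 0.08). Among small heat shock proteins the dim Hspb9 was highest with Mst1r (0.44 ± 0.21) and Hspb2 lowest (-0.10 ± 0.17), and with Slpi Hspb8 was highest (0.10 ± 0.12) and Cryab lowest (-0.13 ± 0.14). With Slpi the co-chaperones ran from Bag2 (-0.21 ± 0.12) to Unc45a (0.21 ± 0.14). Bag3, an HSP70 exchange factor that Hsf1 induces, differed by 0.12 ± 0.14 and 0.09 ± 0.14. Among TRiC subunits Cct5 was highest (0.07 ± 0.08) and Cct7 lowest (-0.13 ± 0.11) with Mst1r, and Cct3 highest (0.06 ± 0.14) and Cct2 lowest (-0.04 ± 0.08) with Slpi.

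The regulators of the response were measured too. Hsf1 itself read 2249, 1885 and 2274, a difference of -0.02 ± 0.12 for Mst1r and 0.09 ± 0.12 for Slpi. Of the 6 factors and regulators 5 were measured, with a median of -0.02 for both vectors. Hsbp1, a protein that binds Hsf1 trimers, was the highest with Mst1r at 0.18 ± 0.14. Hsf4, a factor of the lens, was the lowest with both vectors at -0.75 ± 0.55 and -0.63 ± 0.55, but it was dim and its second probe gave 0.40 and 0.32. Of 5 other known Hsf1 targets 4 were measured, with medians of 0.07 and -0.08. None passed 1.5-fold, beside 3.76% higher and 2.41% lower of all measured genes with Mst1r and 1.05% and 1.02% with Slpi. Within them Dedd2 was highest with both vectors (0.07 ± 0.12 and 0.26 ± 0.12) and Mrpl18 lowest with Mst1r (-0.16 ± 0.14).

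One chaperone of another branch, picked out after its value was seen, read higher with the Mst1r vector. Hspa5 (BiP), the HSP70 of the endoplasmic reticulum, read 21470 with the empty vector, 24924 with Mst1r and 20426 with Slpi on its brightest probe. Its 3 probes gave 0.45 ± 0.08, 0.53 ± 0.14 and 0.52 ± 0.14 for Mst1r, each beyond 2 spot errors and under 1.5-fold, whereas the 4 probes of the cytosolic Hspa8 gave -0.20 to -0.02. The brightest Hspa5 probe stayed above 0 with percentile, median and spike-in scaling and without scaling (0.22 to 0.48), and with Slpi it gave 0.0064 ± 0.08. Over all 15 endoplasmic reticulum chaperones the median was 0.10 with Mst1r, which turns negative without scaling (a shift of -0.23), and 0.03 with Slpi. With either vector 0 passed 1.5-fold, beside 3.76% higher and 2.41% lower of all measured genes with Mst1r and 1.05% and 1.02% with Slpi. Herpud1, a part of the degradation machinery of that compartment, was the highest with Mst1r (0.47 ± 0.15) and Hsp90b1, its HSP90, the lowest (-0.15 ± 0.08). With Slpi, Hyou1 was highest (0.36 ± 0.55, dim) and Dnajc3 lowest (-0.35 ± 0.19).

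In the integrated stress response, in which phosphorylation of a translation initiation factor raises Atf4 and its targets, 5 of 10 genes were at least 1.5-fold higher with Mst1r, beside 3.76% of all measured genes, and 0 with Slpi, beside 1.05%, with medians of 0.52 and 0.09. The transcription factor Atf3 was the highest with Mst1r, at 807, 2189 and 865 on the empty, Mst1r and Slpi vector arrays and a difference of 1.67 ± 0.15. Trib3, a pseudokinase of this response, followed at 1.09 ± 0.12 and was the highest with Slpi at 0.40 ± 0.12. Phgdh, the first enzyme of serine synthesis, was the lowest with Mst1r at -0.11 ± 0.08, and Chac1 was the lowest with Slpi at -0.08 ± 0.12. Of 20 interferon-stimulated genes 9 were higher by that fold with Mst1r (3.76% of all genes), from Bst2 at 0.07 to Gbp2 at 3.96, with a median of 0.56. With Slpi 0 of the 20 were (1.05% of all genes), and the median was -0.10. Housekeeping reference genes had medians of -0.01 and -0.0031. Past 1.5-fold there were 0 of 14, beside 3.76% higher and 2.41% lower of all measured genes with Mst1r and 1.05% and 1.02% with Slpi. These lists were chosen with earlier results of these data known, so their counts beside the shares are description only. The lists share 1 Mst1r vector array with the heat shock genes, and their part in the signals of Hspa1a, Hspa1b and Hspb1 was not tested.

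**Figure D5:**
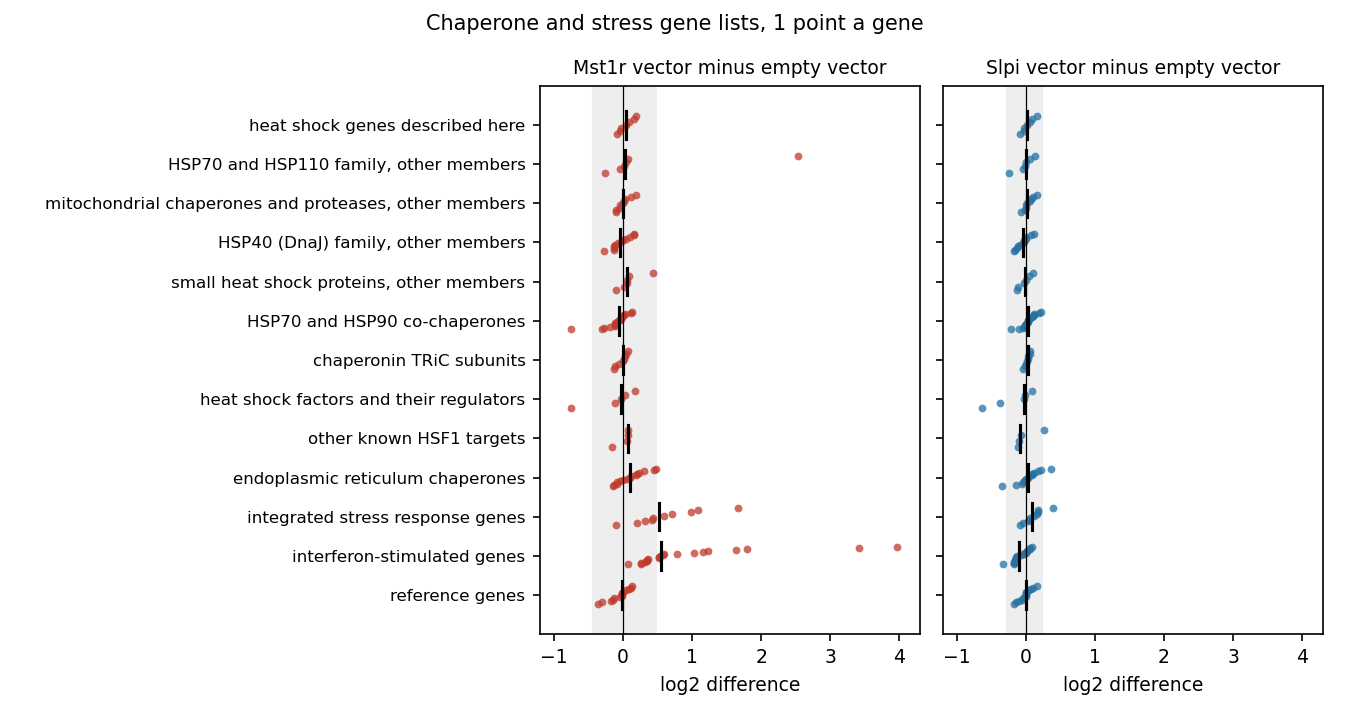
Log2 difference from the empty vector of each measured gene (points) by list, with the list's median (black bar) and the central 90% of all measured genes (grey band), for the Mst1r vector (left) and the Slpi vector (right). The chaperone lists centred near 0 with both vectors, with Hspa12a (2.53) and Stip1 (-0.75) apart on the left, while the integrated stress response and interferon-stimulated genes had medians of 0.52 and 0.56 there.

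The genes whose 2 differences from the empty vector lay nearest to the median pair of the heat shock genes (0.04 and 0.01) were Actl6a, Gm15408, Rec114, Wbp11 and Pih1d2, at distances of 0.0021 to 0.0033 on the log2 scale. Such closeness was common, since 2141 of 11479 genes with signals over 50 lay within 0.1.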

How the data were processed

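One-colour Agilent SurePrint G3 Mouse arrays were read from RNA of 3 cultures labelled by vector. Per the file headers the authors used Feature Extraction 12.0.3.1 on a design built on mm9, and the deposited intensity is the background-subtracted, spatially detrended processed signal. A deposited series table holds the same intensity unscaled (99.99% of values within 0.01 in log2, column medians 18.3, 15.2 and 15.4). Spots flagged as non-uniform or as population outliers were left out. Log2 signals were averaged per probe and the 75th percentile of each array was subtracted, as in the methods. Probes were named through unversioned RefSeq accessions (32994 of 56605 matched), and each gene was represented by its brightest probe. A difference of 1.5-fold was counted. Spot errors came from probes printed at least 10 times, without non-uniform spots but with population outliers kept. Python 3.11.15 and limma 3.58.1 were used. The number of arrays limits the precision. Alternatives were 5 other scalings, normexp background correction (median intensities, since mean intensities were not used here), the mean of all probes, a signal minimum of 50, the lower rows alone and the series table. The genes named were all heat shock genes, the highest and lowest measured gene of each list per vector, the 5 nearest genes, and Mst1r and Slpi; Bag3, Hsf1 and Hspa5 were added after their values were seen, and 1 gene that the rule names is not reported here. The members and lists were chosen with earlier results of these data known.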

Additional observations from a re-analysis of the deposited data

How the results depend on the processing

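The count of measured heat shock genes past 1.5-fold was 0 in every comparison under every alternative run. For 7 genes this is too close to the shares of all measured genes to be a result about them. With percentile scaling those shares were 3.76% higher and 2.41% lower for Mst1r minus empty vector. The median of the 7 genes moved with the scaling. Mst1r minus empty vector was -0.19 without scaling and -0.063 with spike-in scaling, Slpi minus empty vector was 0.18 with median scaling and -0.22 with spike-in scaling, and Mst1r minus Slpi vector was -0.15 without scaling, -0.13 with median scaling and 0.13 with spike-in scaling. These shifts apply to all genes of an array by construction. Quantile normalization, the percentile over detected probes, the mean of all probes, the signal minimum, the series table and normexp moved no median by as much as 0.1. The dim genes, which are not in these medians, did move with normexp. For Mst1r minus empty vector it lowered the log2 difference of Hspa1b from 2.70 to 0.64, and it also lowered those of Hspb1 and Hspa1a. With the lower rows of the array alone Dnajb1, Hspa1b and Hspb1 had no probe. No paired analysis was possible because each group had 1 array, and for the same reason no replicate could be left out. Signals under about 19 on these arrays are not distinguished from background, which limits Hspa1a, Hspa1b and Hspb1.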
